A study of Homo sapiens with 12 samples.

Results

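The genes described here are 9 of the core genes of cellular iron handling, FTH1, FTL, NCOA4, TFRC, STEAP3, SLC11A2, SLC40A1, ACO1 and IREB2. They were taken by symbol from the gene table of an RNA-seq study, in which they are 9 of 50868 rows, and all 9 had enough counts to be tested. The RNA came from RPMI2650, a human line from a tumour of the nasal septum used as a model of nasal epithelium, grown at an air-liquid interface. There were 4 libraries from cells kept for 7 days with 1 µM perfluorohexanoic acid (PFHxA), 4 from cells kept for 7 days with 1 µM perfluorobutanoic acid (PFBA) and 4 control libraries. Both agents are perfluoroalkyl carboxylic acids, persistent industrial chemicals, and PFHxA has the longer chain. The cells are labelled wild type throughout, and no day or vehicle is recorded for the controls. The labels do not tell whether libraries of a group came from separate cultures, so that p-values measure the spread between libraries, which may be technical.

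Iron enters most cells bound to transferrin, which the transferrin receptor TFRC carries into endosomes; there the reductase STEAP3 turns ferric into ferrous iron and SLC11A2 (DMT1) moves it to the cytosol. Iron that is not used is kept inside ferritin, a shell of FTH1 and FTL chains, from which it is freed when NCOA4 delivers the shell to the autophagosome, or it leaves through ferroportin, SLC40A1. The iron regulatory proteins ACO1 (IRP1) and IREB2 (IRP2) bind hairpins called iron-responsive elements when iron is scarce, which blocks translation of ferritin and ferroportin mRNA from the 5′ end and shields TFRC mRNA from decay at the 3′ end. RNA counts do not show translation or protein.

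The hairpins are printed because the regulators are known to bind them in ferritin, ferroportin and TFRC mRNA. GENCODE 29 principal transcripts on GRCh38 were searched for the letters CNNNNNCAGTGN, with 5 pairs between the bases before and after the loop. The search was in the sense direction of the mRNA, and a G beside a T counted as a pair. Each line gives 27 bases of the sense strand written as DNA, 5′ to 3′, with the bulged C and the 6-base loop in capitals.
FTH1 (chr11:61967575-61967601, minus strand, 5′ UTR): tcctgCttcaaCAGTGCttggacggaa
FTL (chr19:48965336-48965362, plus strand, 5′ UTR): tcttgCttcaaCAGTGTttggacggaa
SLC40A1 (chr2:189580662-189580688, minus strand, 5′ UTR): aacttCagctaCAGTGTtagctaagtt
TFRC, 1 of 4 along the transcript (chr3:196050980-196051006, minus strand, 3′ UTR): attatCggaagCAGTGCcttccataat
TFRC, 2 of 4 (chr3:196050576-196050602): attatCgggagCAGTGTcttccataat
TFRC, 3 of 4 (chr3:196050511-196050537): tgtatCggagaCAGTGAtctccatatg
TFRC, 4 of 4 (chr3:196050464-196050490): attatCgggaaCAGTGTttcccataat
The FTH1 and FTL windows differed at 2 of 27 bases. The letters alone stood in 69.7% of the principal transcripts of 13378 tested protein-coding genes, and the letters with the stem in 1.42%, or 190 genes. SLC11A2, STEAP3, NCOA4, ACO1 and IREB2 held no such match in the principal transcript, which says only that these letters with this stem are not in it. SLC11A2 is known to have a splice form with such an element in its 3′ UTR. EPAS1, CDC14A, CDC42BPA and PFN2, whose mRNAs are known to carry such an element, held no match in the principal transcript either. The search can therefore miss elements, and the 4 of TFRC are only those it found.

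Library totals ran from 16941599 to 21879105 counts, and 16554 genes were tested. Levels are CPM, the count scaled to the TMM-adjusted size of the library, and a gene is called when its edgeR p, adjusted over all tested genes, is under 0.05. Of 9 epithelial markers, 8 had a mean over 1 CPM, led by KRT5 at 1926 and KRT7 at 1322 CPM, with KRT14 at 0.495 CPM. The sum of these markers was 4152 to 4425 CPM with PFHxA, 3738 to 3970 CPM with PFBA and 4045 to 4159 CPM in control. Of other cells rich in iron proteins, 5 erythroid markers summed to at most 0.324 CPM in any library. The 5 macrophage markers summed to 1.31 to 2.79 with PFHxA, 1.46 to 3.03 with PFBA and 1.63 to 2.13 CPM in control. CD68 had the highest mean of these 5, with 0.929 to 2.697 CPM over the 12 libraries. CD14 and AIF1 were at 0 in 1 library each, and PTPRC and CD163 in 8 libraries each. Of 4 ciliated markers, FOXJ1 averaged 7.97 and CFAP43 3.47 CPM and TEKT1 was at 0 in all 12 libraries, and of 4 secretory markers MUC5B averaged 2.00 and MUC5AC 1.20 CPM and SCGB1A1 was at 0 in all 12. Counts of transcripts rich in G and C were higher, relative to those of other transcripts, with PFHxA. The slope of log2 level per 10 points of GC content was 0.0706 to 0.104 in the 4 PFHxA libraries, -0.0650 to 0.00417 with PFBA and -0.0661 to -0.0132 in control, and no batch or date is given by which this and the group could be told apart. Mitochondrial genes held 12.6% ± 0.575 of counts with PFHxA, 11.4% ± 0.239 with PFBA and 10.9% ± 1.253 in control (SD, n = 4 each).

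Ferritin mRNA was the most abundant of the set, per length, and was not called in any comparison. FTH1 (ENSG00000167996, chromosome 11, 61959718 to 61967660, minus strand), the heavy chain that oxidises iron as it enters the shell, had 378, 419.9, 379 and 405 CPM in PFHxA libraries a to d. It had 370.0, 382, 378 and 391 CPM in the PFBA libraries and 349, 361, 391 and 409 CPM in the control libraries. The 3 groups overlapped, with the control libraries spanning nearly the whole range. The log2 fold change of FTH1 was 0.07 for PFHxA against control (SE 0.0529, edgeR adjusted p = 0.463, 95% interval -0.05 to 0.18) and 0.01 for PFBA against control (SE 0.0528, edgeR adjusted p = 0.975, interval -0.10 to 0.12).

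FTL (ENSG00000087086, chromosome 19, 48965301 to 48966878, plus strand), the light chain that helps lay down the iron core, had 393, 410.0, 415 and 398 CPM with PFHxA. With PFBA it had 344, 379, 399 and 442 CPM, and in control 391, 407, 419 and 448 CPM. The lowest of these 12 values was PFBA a and the highest control d, with PFBA d next to it, and all groups overlapped. Its log2 fold change was -0.04 for PFHxA against control (SE 0.0656, edgeR adjusted p = 0.732, interval -0.18 to 0.10) and -0.09 for PFBA against control (SE 0.0656, edgeR adjusted p = 0.678, interval -0.23 to 0.05). Pearson's r between FTH1 and FTL over the 12 libraries was 0.463 in log2 CPM, given as a description over libraries that differ in depth and GC trend. The closest followers of FTH1 among 10705 protein-coding genes of at least 5 CPM were EGFL7 (r = 0.906), PDIA4 (0.886) and DDIT4 (0.875), and those of FTL were DTD2 (0.891), MYDGF (0.880) and HSCB (0.877).

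**Figure D1:**
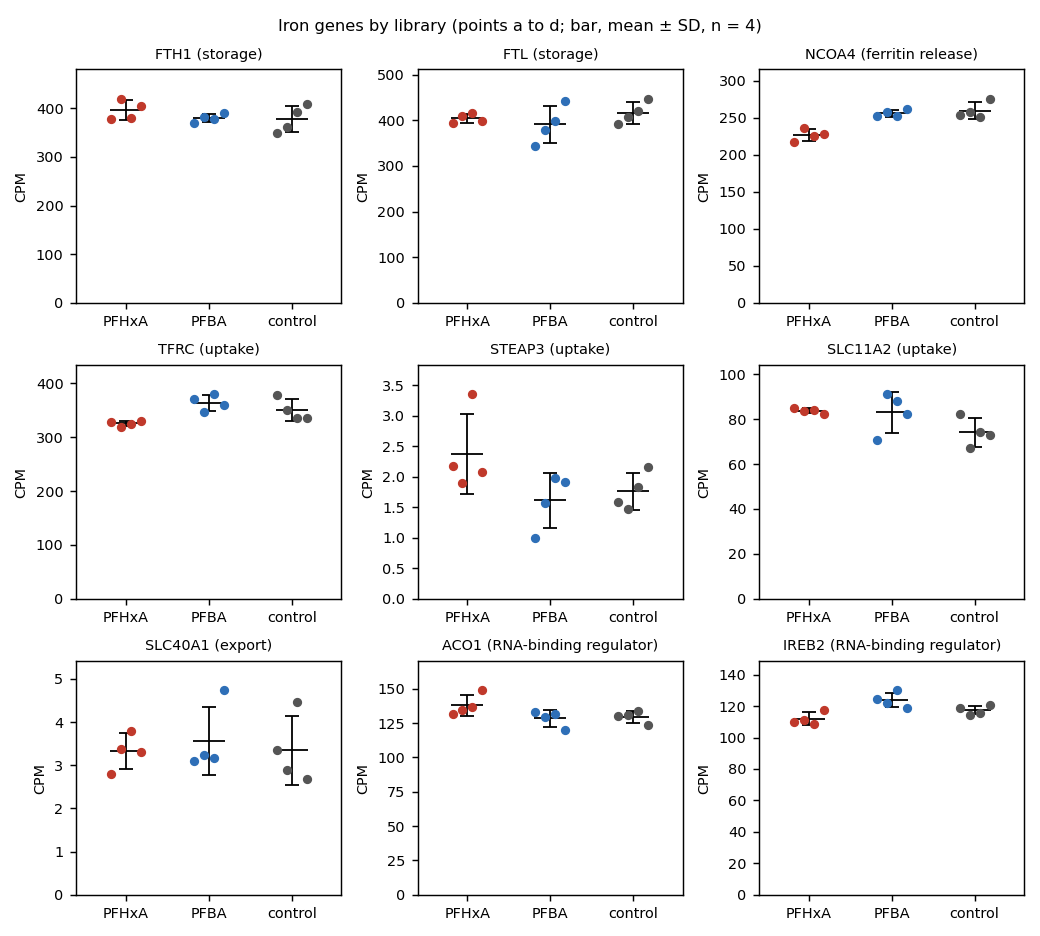
Level of each of the 9 genes in CPM (y axis, from 0) in PFHxA, PFBA and control libraries; points are libraries a to d from left to right, and bars the mean with 1 SD (n = 4). NCOA4 at 218 to 236 CPM and TFRC at 319 to 331 CPM lay below all PFBA and control libraries with PFHxA, while the groups of FTH1, FTL, SLC11A2, SLC40A1, STEAP3 and ACO1 overlapped.

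Ferritin heavy chain reads can be shared with its many processed pseudogenes, which are near-identical copies of the mRNA. The table held 24 FTH1 pseudogene rows, 16 of them with a count, and together they took 15.6% to 19.5% of the reads of FTH1 plus its pseudogenes with PFHxA, 15.1% to 19.0% with PFBA and 15.1% to 19.5% in control. For FTL, 16 pseudogene rows, 6 with a count, took at most 0.841%. FTH1P2 was the most counted with 601 to 710 reads per library with PFHxA, 562 to 859 with PFBA and 523 to 771 in control, and FTLP3 led the light chain copies with 45 to 57 reads with PFHxA, 47 to 59 with PFBA and 50 to 59 in control. How the counting program treated reads that match several places is not given in the sources used here, so the split between FTH1 and its copies is uncertain. None of the 7 pseudogenes tested was called in any comparison. With these reads added to their gene, FTH1 had a log2 fold change of 0.08 for PFHxA against control (edgeR adjusted p = 0.290). FTH1P10 stood apart in single libraries, with 4 reads in PFBA a and 19 in control c, against 140 to 233 in the other 10.

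**Figure D2:**
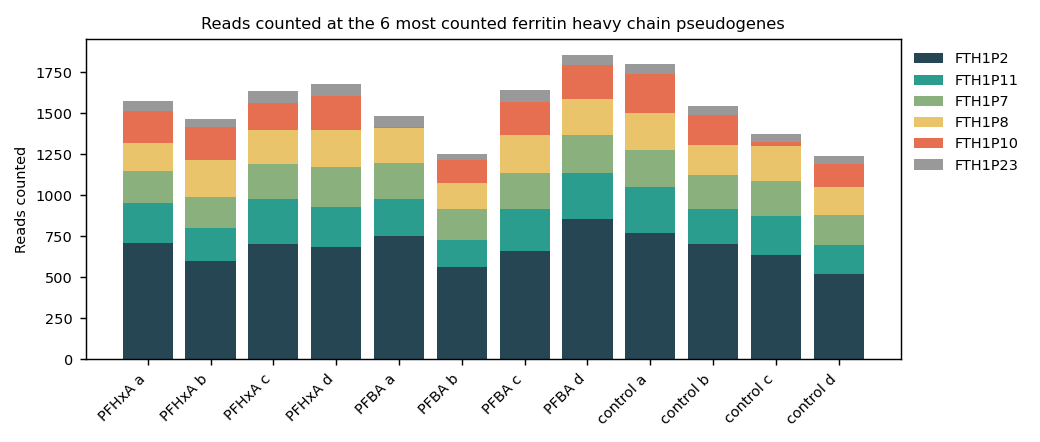
Reads counted at the 6 most counted FTH1 pseudogenes (y axis, stacked bars) in each of the 12 libraries (x axis, PFHxA, PFBA, then control). FTH1P2 was the largest share in every library, and FTH1P10 nearly vanished in PFBA a and control c, with 4 and 19 reads.

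NCOA4, the receptor that takes ferritin to the autophagosome, fell with PFHxA and was the 1 of the 9 genes called against control, where 14.9% of all tested genes were called. NCOA4 (ENSG00000266412, chromosome 10, 46005088 to 46030714, minus strand) had 218, 236, 225 and 228 CPM in the PFHxA libraries, against 253, 258, 251 and 276 CPM in control. It had 252, 258, 252 and 262 CPM with PFBA. Every PFHxA library was below every library of both other groups; against control this held for 11.2% of all genes. The log2 fold change for PFHxA against control was -0.20, a fold of 0.873 (SE 0.0398, edgeR adjusted p = 0.00648, interval 0.823 to 0.927). The gene was called in all 12 fits that left out 1 library, with an adjusted p of at most 0.0285. For PFBA against control the log2 fold change was -0.02 (edgeR adjusted p = 0.904, interval for the fold 0.929 to 1.05). Its 3 pseudogene rows held at most 3 reads in a library. In bulk RNA, fewer cells with a transcript and less of it per cell cannot be told apart.

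What the GC trend of the PFHxA libraries takes from NCOA4 depends on the transcript. Its longest transcript is 43.1% GC. Among the 4086 tested genes of 38 to 44% GC in their longest transcript, the median log2 fold change for PFHxA against control was -0.12, with 18.5% called lower and 0.832% called higher. Its principal transcript is 46.7% GC. Among the 3615 genes of 44 to 50% GC in their principal transcript, the median was -0.02, with 5.37% called lower and 3.82% called higher. After the dependence on GC content and length was taken out of every library, NCOA4 had a log2 fold change of -0.12 (edgeR adjusted p = 0.0959) by the longest transcript of each gene and -0.17 (edgeR adjusted p = 0.0233) by the principal one, so that the call was lost by the first and kept by the second. The second was chosen after seeing the data. Values given below with the trend removed rest on the longest transcript unless the principal one is named.

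Of the uptake genes, TFRC was the one whose PFHxA libraries stood apart from both other groups. TFRC (ENSG00000072274, chromosome 3, 196027183 to 196082189, minus strand) had 328, 319, 325 and 331 CPM with PFHxA. It had 371, 346, 379.5 and 359 CPM with PFBA, and 379, 352, 336 and 337 CPM in control. The PFHxA libraries lay close together and below all 8 others, by a narrow margin below control c and d. The log2 fold change for PFHxA against control was -0.11 (SE 0.0444, edgeR adjusted p = 0.128, interval -0.20 to -0.01), which did not pass, and for PFBA against control 0.05 (SE 0.0444, edgeR adjusted p = 0.734, interval -0.04 to 0.15). The longest TFRC transcript is 41.5% GC, and with the trend removed its log2 fold change for PFHxA against control was -0.03 (edgeR adjusted p = 0.724).

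The genes that followed TFRC most closely over the 12 libraries were RPRD1A (r = 0.950), ZMYM4 (0.928) and EPS15 (0.924), and among the 9 genes IREB2 (0.777). RPRD1A had 150.2 ± 3.07 CPM with PFHxA, 165 ± 6.59 with PFBA and 160.4 ± 3.60 in control (SD, n = 4 each), so that it too was lowest with PFHxA. These correlations are descriptions over 12 libraries that differ in GC trend.

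SLC11A2 (ENSG00000110911, chromosome 12, 50979401 to 51028566, minus strand), which also takes up dietary iron in the gut, had 84.7, 83.8, 84.1 and 82.3 CPM with PFHxA. It had 70.6, 91.0, 88.2 and 82.2 CPM with PFBA and 82.4, 67.0, 74.3 and 72.8 CPM in control. Control a overlapped the PFHxA libraries, while the other 3 controls were lower than all 4. Its log2 fold change was 0.18 for PFHxA against control (SE 0.0755, edgeR adjusted p = 0.144, interval 0.01 to 0.34) and 0.16 for PFBA against control (SE 0.0754, edgeR adjusted p = 0.508, interval for the fold 1.000 to 1.25). Neither passed. With the trend removed, the value for PFHxA against control was 0.23 (edgeR adjusted p = 0.129).

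STEAP3 (ENSG00000115107, chromosome 2, 119223831 to 119265652, plus strand) was near the lower limit of what these libraries can compare, with 22 to 60 counts per library. It had 2.19, 1.90, 3.35 and 2.08 CPM with PFHxA, 1.00, 1.56, 1.97 and 1.92 CPM with PFBA and 1.59, 1.47, 1.83 and 2.16 CPM in control. PFHxA c was the highest and PFBA a the lowest of the 12, and the groups overlapped. STEAP3 had a log2 fold change of 0.43 for PFHxA against control (SE 0.237, edgeR adjusted p = 0.255, interval -0.08 to 0.95) and -0.12 for PFBA against control (SE 0.244, edgeR adjusted p = 0.908, interval -0.65 to 0.41). At this depth the intervals were wide, and a change of any size within them remains possible.

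The exporter SLC40A1 (ENSG00000138449, chromosome 2, 189560579 to 189583758, minus strand), the only known way out for iron in mammalian cells, was also scarce, with 46 to 96 counts per library. It had 2.79, 3.38, 3.80 and 3.31 CPM with PFHxA, 3.10, 3.24, 3.18 and 4.73 CPM with PFBA and 3.36, 2.89, 4.47 and 2.69 CPM in control. PFBA d and control c were the highest and the groups overlapped. SLC40A1 had a log2 fold change of -0.02 for PFHxA against control (SE 0.188, edgeR adjusted p = 0.971, interval for the fold 0.748 to 1.31) and 0.09 for PFBA against control (SE 0.185, edgeR adjusted p = 0.914, interval for the fold 0.804 to 1.40).

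The 2 regulators that bind the hairpins were at similar levels and were not called against control. IREB2 (ENSG00000136381, chromosome 15, 78437431 to 78501456, plus strand), the regulator that is broken down when iron is ample, had 110.0, 111, 109 and 118 CPM with PFHxA. It had 125, 122, 129.9 and 119 CPM with PFBA, and 119, 115, 116 and 120.5 CPM in control. PFHxA d overlapped the controls, and no PFHxA library reached the lowest PFBA library. Against control, IREB2 had a log2 fold change of -0.07 for PFHxA (SE 0.0410, edgeR adjusted p = 0.299, interval -0.16 to 0.02) and 0.08 for PFBA (SE 0.0409, edgeR adjusted p = 0.568, interval -0.01 to 0.16).

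ACO1 (ENSG00000122729, chromosome 9, 32384603 to 32454769, plus strand) is an aconitase while it holds an iron-sulfur cluster and an RNA-binding protein without it. It had 131 to 149 CPM with PFHxA, 119.7 to 133 CPM with PFBA and 123 to 133 CPM in control. PFHxA d was above all others, and the remaining PFHxA libraries lay among or just above the rest. ACO1 had a log2 fold change of 0.09 for PFHxA against control (SE 0.0484, edgeR adjusted p = 0.244, interval -0.01 to 0.20) and -0.01 for PFBA against control (SE 0.0484, edgeR adjusted p = 0.955, interval -0.12 to 0.09).

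Counted over the 9 genes, PFHxA against control gave 1 call, NCOA4, where 8.82% of all tested genes were called lower. An unadjusted p under 0.05 was found for 3 of the 9, NCOA4, TFRC and SLC11A2, and for 28.5% of all genes. The groups did not overlap for NCOA4 and TFRC, both lower with PFHxA, where 20.7% of all genes did not overlap in one direction or the other. With the GC and length trend removed, 0 of the 9 were called, where 2.59% of all genes were, and by the principal transcript 1, NCOA4, where 2.34% were. The median log2 fold change was -0.02 for the 9 genes and -0.00385 for all tested genes. PFBA against control gave 0 calls by edgeR, limma-voom and DESeq2 and 0 genes with an unadjusted p under 0.05. Of all tested genes, 0.00604%, or 1 gene, was called by edgeR, 0.266% by DESeq2, and 9.86% had an unadjusted p under 0.05. None of the 9 genes was without overlap between PFBA and control, where 5.96% of all genes were. Their intervals in that comparison lay within 0.638-fold and 1.40-fold, and those of all but STEAP3 and SLC40A1 between 0.851-fold and 1.25-fold.

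Set against each other at the same dose and time, PFHxA and PFBA differed at 3 of the 9 genes, all lower with the longer acid, where 10.9% of all tested genes were called and 7.07% were called lower. This is 1 pair of compounds, and it uses the same PFHxA libraries as the comparison with control. NCOA4 had 227 ± 7.68 CPM with PFHxA and 256 ± 4.60 CPM with PFBA (log2 fold change -0.17, SE 0.0398, edgeR adjusted p = 0.0142). TFRC had 326 ± 4.96 CPM with PFHxA and 364 ± 14.5 CPM with PFBA (log2 fold change -0.16, SE 0.0444, edgeR adjusted p = 0.0345). IREB2 had 112 ± 4.03 CPM with PFHxA and 124 ± 4.72 CPM with PFBA (log2 fold change -0.15, SE 0.0409, edgeR adjusted p = 0.0370). These were also the 3 genes whose PFHxA and PFBA libraries did not overlap, where 20% of all genes did not and 10.8% lay lower. With STEAP3 they were the 4 with an unadjusted p under 0.05, as had 26.6% of all genes, and the median log2 fold change was 0.01 for the 9 genes and 0.00545 for all tested genes.

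The direct differences between the acids were small and sensitive to single libraries. TFRC was called in 5 of 12 fits that left out 1 library, with an adjusted p of up to 0.105 without PFHxA b, and also lost the call without PFHxA a, c or d or PFBA a, c or d. IREB2 was called in 7 of 12, with an adjusted p of up to 0.119 without PFHxA c, and also lost it without PFHxA a or b or PFBA a or c. NCOA4 was called in 11 of 12 and reached 0.0503 without PFHxA c. The longest transcripts are 38.3% GC for IREB2 and 41.5% for TFRC, the lowest of the 9, and 43.1% for NCOA4, above SLC40A1 at 42.4% and SLC11A2 at 43.0%, which were not called. Among all genes of 38 to 44% GC the median log2 fold change for PFHxA against PFBA was -0.13, with 15.8% called lower. With the trend removed, none of the 3 was called, where 0.749% of all genes were. The edgeR values were then -0.10 for NCOA4 (adjusted p = 0.261), -0.05 for TFRC (adjusted p = 0.567) and 0.02 for IREB2 (adjusted p = 0.872), so that the sign of IREB2 turned. By the principal transcript none of the 3 was called either, where 0.707% of all genes were, and NCOA4 had -0.15 (edgeR adjusted p = 0.0657).

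At the other 6 genes a difference between the acids was not shown, and the intervals give what remains possible. In terms of fold, PFHxA over PFBA, they ran from 0.961 to 1.13 for FTH1, 0.937 to 1.14 for FTL, 0.902 to 1.13 for SLC11A2 and 0.999 to 1.15 for ACO1. The 2 scarce genes allowed more, 0.706 to 1.23 for SLC40A1 and 1.03 to 2.10 for STEAP3. STEAP3 had an unadjusted p of 0.0355 and an edgeR adjusted p of 0.152.

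**Figure D3:**
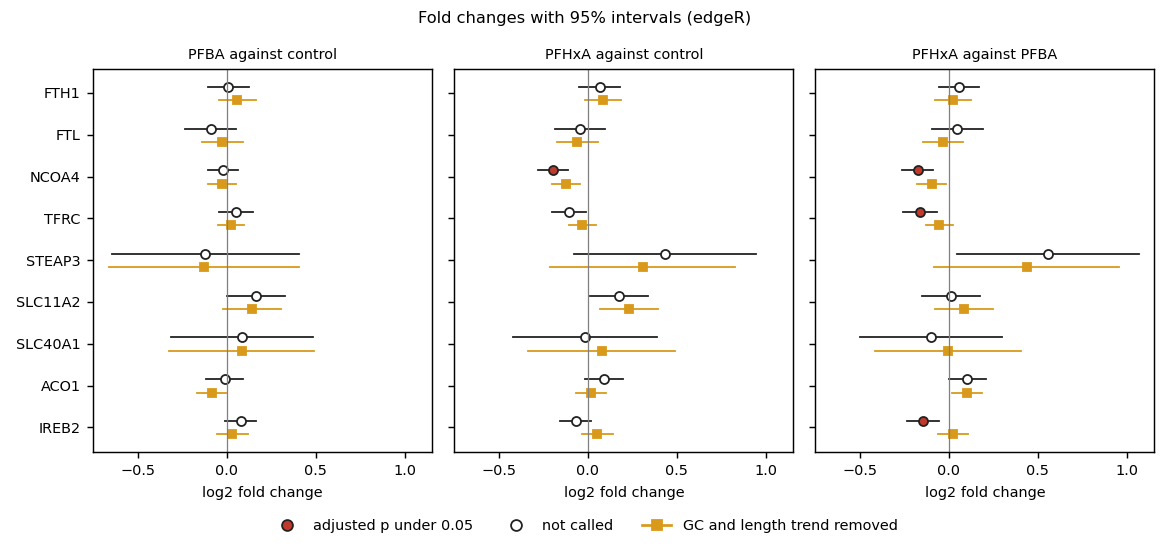
Log2 fold changes of the 9 genes (x axis) with 95% intervals in 3 comparisons; circles are the edgeR fit, filled where the adjusted p was under 0.05, and squares the fit with the GC content and length trend of the longest transcript removed. NCOA4 is filled for PFHxA against control, and NCOA4, TFRC and IREB2 for PFHxA against PFBA, and none of the squares reached the threshold.

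**Figure D4:**
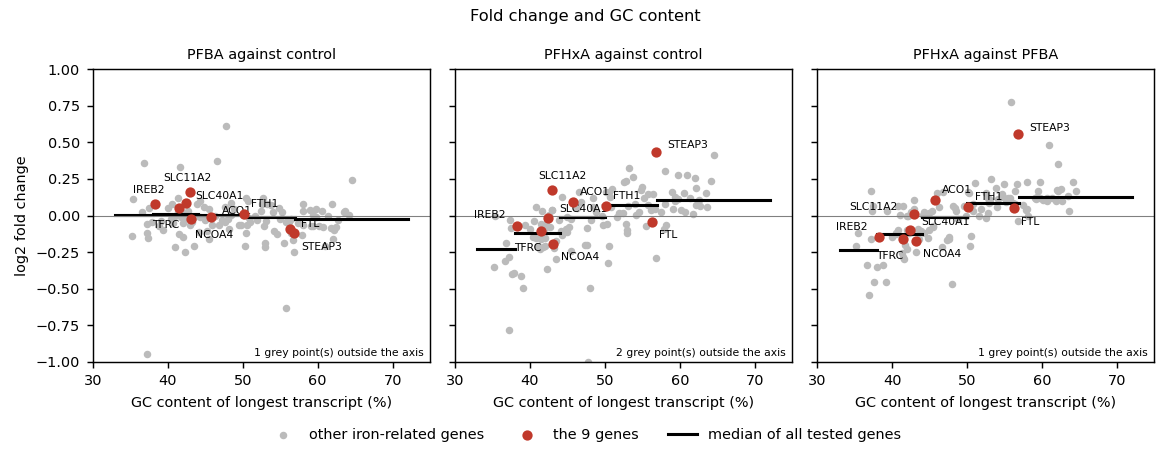
Log2 fold change (y axis) against GC content of the longest transcript (x axis, %) for the 9 genes (red), the other iron-related genes tested (grey) and the median of all tested genes in 5 ranges of GC (black). The median rises with GC in both comparisons that involve PFHxA, from -0.23 below 38% to 0.10 above 57% against control, and stays between -0.02 and 0.01 for PFBA against control.

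Ratios within a library do not depend on its total. NCOA4 reads per FTH1 read were 0.562 to 0.593 with PFHxA, 0.667 to 0.682 with PFBA and 0.641 to 0.726 in control, so that the PFHxA libraries stood below both. TFRC reads per FTH1 read were 0.760 to 0.868 with PFHxA, 0.907 to 1.00 with PFBA and 0.823 to 1.09 in control, with overlap between PFHxA and control. FTH1 is 50.1% GC, so these ratios too move with the GC trend.

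Between genes, levels were compared as CPM per kb of the principal transcript. With PFHxA the means were 460.2 for FTL, 322 for FTH1, 98.2 for NCOA4, 63.7 for TFRC, 20.1 for SLC11A2, 18.5 for ACO1, 17.6 for IREB2, 0.964 for SLC40A1 and 0.608 for STEAP3. With PFBA they were 445 for FTL, 309 for FTH1, 111 for NCOA4, 71.2 for TFRC, 19.9 for SLC11A2, 17.2 for ACO1, 19.5 for IREB2, 1.03 for SLC40A1 and 0.413 for STEAP3. In control they were 474 for FTL, 307 for FTH1, 112 for NCOA4, 68.7 for TFRC, 17.8 for SLC11A2, 17.3 for ACO1, 18.5 for IREB2, 0.974 for SLC40A1 and 0.450 for STEAP3. The 4 most abundant kept their order in each group, and none of their neighbours overlapped over the 12 libraries.

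Further down, SLC11A2 at 16.1 to 21.8, IREB2 at 17.1 to 20.4 and ACO1 at 16.0 to 19.9 CPM per kb overlapped over the 12 libraries and could not be ordered. SLC40A1 at 0.780 to 1.37 and STEAP3 at 0.256 to 0.856 CPM per kb overlapped too. The light chain of ferritin exceeded the heavy chain, with FTL over FTH1 at 1.43 ± 0.0783 with PFHxA, 1.44 ± 0.121 with PFBA and 1.54 ± 0.0359 in control (SD, n = 4 each). Pseudogene reads were not added here. They were up to 19.5% of the reads of FTH1 plus its copies and up to 0.841% for FTL, so these ratios may be too high. The length used bears on NCOA4, whose principal transcript has 2307 bases and whose longest has 3549. Per kb of the longest it had 61.4 to 77.8 CPM over the 12 libraries, within which lay the 62.5 to 74.3 of TFRC.

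**Figure D5:**
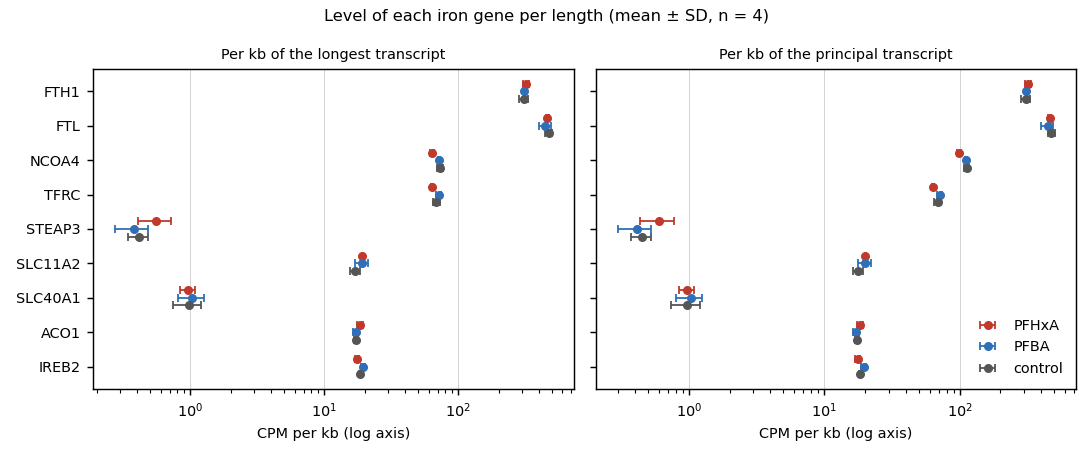
Level of each gene on a log axis, as CPM per kb of the longest transcript (left) and of the principal transcript (right); points are group means and bars 1 SD (n = 4) for PFHxA, PFBA and control. FTL and FTH1 lie highest and STEAP3 and SLC40A1 lowest in both panels, and with PFHxA NCOA4 lies at 98.2 against 63.7 for TFRC on the right and level with it on the left.

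Beyond these 9, 137 further genes were followed. They cover iron transport, iron-sulfur and heme synthesis, ferritin autophagy, receptor trafficking, and lipid peroxide formation and defence, and 121 were tested. With PFHxA against control, 9 were called higher and 14 lower, 19.0% against 14.9% of all genes. The 14 lower genes had transcripts of 35.2% to 48.0% GC and the 9 higher ones 52.8% to 64.2%. With the trend removed, 3 stayed called, CP, TAX1BP1 and RB1CC1, where 2.59% of all genes were called. By the principal transcript ATP6V0A1 stayed called as well, where 2.34% of all genes were. With the trend left in, the count was 14 without PFHxA b and 15 without PFHxA d. With PFHxA against PFBA, 8 were called higher and 9 lower, 14.0% against 10.9% of all genes. The number called was 9 without PFHxA b, 10 without PFBA a or PFBA c and 11 without PFBA d or PFHxA c. In these fits without a library, against control or PFBA, the share of all genes called is not given here. These counts can therefore not be set against it. TAX1BP1 and RB1CC1 stayed called with the trend removed by either transcript. Of all genes, 0.749% were called by the longest transcript and 0.707% by the principal one. Without a filter on low counts the calls of FBXL5, HMOX1, ISCA1, ISCA2, ISCU, LPCAT3 and RAB11B against control were lost, as were those of AP2A1, ATP6V0A1 and FBXL5 against PFBA.

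Among 21 tested genes of iron transport and regulation, 1 was called higher and 2 lower with PFHxA against control, 14.3% against 14.9% of all genes, with a median log2 fold change of 0.00196. Ceruloplasmin (CP), the copper oxidase that loads exported iron onto transferrin, had 10.4 ± 1.13 CPM with PFHxA and 14.6 ± 0.456 CPM in control (log2 fold change -0.49, edgeR adjusted p = 0.00210). It fell against PFBA as well, which had 14.2 ± 0.560 CPM (-0.45, edgeR adjusted p = 0.00387). With the trend removed CP had -0.35 against control (edgeR adjusted p = 0.0249) and -0.30 against PFBA (adjusted p = 0.0842). FBXL5, the iron-sensing part of the ligase that degrades IREB2, had 118 ± 1.74 CPM with PFHxA and 131 ± 4.31 CPM in control (-0.15, edgeR adjusted p = 0.0158), and -0.00196 with the trend removed (adjusted p = 0.986). Against PFBA it was also called (-0.12, edgeR adjusted p = 0.0410). HMOX1, which frees iron from heme, rose to 9.71 ± 0.608 CPM with PFHxA, against 7.85 ± 0.532 CPM in control (0.30, edgeR adjusted p = 0.0354; 0.24 with the trend removed, adjusted p = 0.186).

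Iron-sulfur cluster assembly held 28 tested genes, of which 5 fell and 0 rose with PFHxA against control, 17.9% against 14.9% of all genes (median log2 fold change -0.00824). These were the scaffold ISCU (-0.20, adjusted p = 0.0368), the carriers ISCA1 (-0.15, adjusted p = 0.0379), ISCA2 (-0.30, adjusted p = 0.0485) and NFU1 (-0.37, adjusted p = 0.00617), and the chaperone HSPA9 (-0.17, adjusted p = 0.0213), all by edgeR. None stayed called with the trend removed, and ISCA1 then had 0.03. HSPA9 was also lower against PFBA (-0.16, edgeR adjusted p = 0.0326). Up to 7.39% of the reads of ISCA1 and its 4 pseudogene rows fell on the copies, and up to 0.930% for HSPA9. Of 14 tested heme synthesis genes, 1 was called against control and against PFBA, 7.14%, where 14.9% and 10.9% of all genes were. This was CLPX, the mitochondrial unfoldase that activates ALAS. It fell against control (-0.23, edgeR adjusted p = 0.00486) and against PFBA (-0.26, edgeR adjusted p = 0.00364). It was not called with the trend removed.

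Of 14 tested genes of ferritin autophagy, the route on which NCOA4 acts, 3 rose and 2 fell with PFHxA, against control and against PFBA. This was 35.7% of the list, where 14.9% of all genes were called against control and 10.9% against PFBA. TAX1BP1, an adaptor that takes NCOA4 and ferritin to the lysosome, had 85.0 ± 9.24 CPM with PFHxA, 118 ± 7.80 CPM with PFBA and 119.8 ± 4.83 CPM in control (log2 fold change against control -0.49, edgeR adjusted p = 0.0016). RB1CC1 (FIP200), of the complex that starts autophagosomes, had 64.7 ± 3.80 CPM with PFHxA, 88.6 ± 1.83 CPM with PFBA and 85.4 ± 3.73 CPM in control (-0.40, edgeR adjusted p = 0.00113). With the trend removed, TAX1BP1 had -0.54 (edgeR adjusted p = 0.00826) and RB1CC1 -0.27 (edgeR adjusted p = 0.0127) against control; by the principal transcript TAX1BP1 had -0.31 (adjusted p = 0.0176). The kinase ULK1 (0.23, adjusted p = 0.0239), the lipid scramblase ATG9A (0.28, adjusted p = 0.00440) and HERC2 (0.32, adjusted p = 0.00226), the ligase that degrades NCOA4 when iron is ample, rose against control by edgeR, and none of the 3 stayed called with the trend removed. The median log2 fold change of the 14 was 0.000728 against control and 0.0159 against PFBA.

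Of 24 genes that carry the transferrin receptor through endosomes, 3 rose and 2 fell with PFHxA against control, 20.8% against 14.9% of all genes (median log2 fold change 0.00781). RAB5A of early endosomes (-0.21, adjusted p = 0.0199) and the retromer subunit VPS35 (-0.21, adjusted p = 0.00949) fell, and the proton pump genes ATP6AP1 (0.19, adjusted p = 0.0404) and ATP6V0A1 (0.26, adjusted p = 0.00790) and RAB11B of recycling endosomes (0.15, adjusted p = 0.0331) rose, all by edgeR. Against PFBA, RAB5A (-0.23) and VPS35 (-0.20) were again lower, and ATP6AP1 (0.22), ATP6V0A1 (0.19) and the clathrin adaptor AP2A1 (0.35, edgeR adjusted p = 0.0344) higher. None of these stayed called with the trend removed, and by the principal transcript ATP6V0A1 did against control (0.23, edgeR adjusted p = 0.0401).

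In lipid peroxide defence, which limits death by iron-driven oxidation, 1 gene rose and 2 fell of 15 tested with PFHxA against control, where 14.9% of all genes were called (median log2 fold change -0.00573). LPCAT3, which builds polyunsaturated phospholipids and is not a defence gene, rose (0.23, edgeR adjusted p = 0.0251). The mitochondrial outer membrane genes CISD1 (-0.35, edgeR adjusted p = 0.00499) and VDAC3 (-0.22, edgeR adjusted p = 0.0267) fell. None of the 3 stayed called with the trend removed. GPX4, the enzyme that reduces lipid peroxides, was higher against PFBA, with 69.9 ± 1.17 CPM with PFHxA and 61.6 ± 1.20 CPM with PFBA (0.18, edgeR adjusted p = 0.0144; 0.07 with the trend removed, adjusted p = 0.390).

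None of the 121 genes was called for PFBA against control by edgeR. The smallest p in each list belonged to NFU1 (log2 fold change -0.25, edgeR adjusted p = 0.332), the heme enzyme UROD (-0.18, adjusted p = 0.344), GCH1 (1.29, adjusted p = 0.350), the small GTPase RAB5C (-0.63, adjusted p = 0.500), the siderophore binder LCN2 (-0.25, adjusted p = 0.599), ATG16L1 of autophagy (0.09, adjusted p = 0.634) and CDC42BPA (0.08, adjusted p = 0.673). GCH1, which makes the antioxidant tetrahydrobiopterin, had 19.5 ± 1.66 CPM with PFBA and 7.96 ± 6.30 CPM in control, a spread among controls nearly as large as their mean. The iron hormone HAMP, its partner HJV, lactoferrin LTF and mitochondrial ferritin FTMT had 0 counts in all 12 libraries, and transferrin (TF) had at most 5 in any.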

How the data were processed

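The gene table of 12 libraries holds raw read counts deposited by the authors, per the file headers, and 12 columns of FPKM that were not used here. Reads were aligned with HISAT2 2.0.4 to GRCh38 (hg38), per the submitters' processing notes. The sources used here do not give the counting program, annotation release or strand setting. Column prefixes were read as PFHxA, PFBA and control, and nothing links letters a to d to the label numbers.

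Counts were tested with edgeR 4.0.16 in R 4.3.3 (limma 3.58.1): genes were kept by filterByExpr with a minimum count of 10 and a total of 15, scaled by TMM, and fitted by quasi-likelihood with group as the term in all 12 libraries, with Benjamini-Hochberg adjustment over 16554 genes at 0.05. SEs were derived from the log2 fold change and F, and intervals are at 95%. Log2 CPM adds a prior count of 2. Levels between genes, planned in FPKM, are CPM per kb of the GENCODE 29 transcript. The fit was also run on counts simulated from the control means, with no GC trend between libraries. That run, whose outcome is not given here, cannot show how the fit behaves with such a trend. GC content and lengths came from GENCODE 29, which holds 98.5% of the gene identifiers; the trend was removed by natural splines with 5 degrees of freedom each. FTH1 overlaps BEST1 on the other strand, which had 5 to 13 reads.

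The genes and lists were chosen with earlier results of these data known. Named are the 9 genes, of each list the called genes (4 of smallest p where over 5, 1 where none), the most counted ferritin pseudogenes and the 3 genes most correlated with FTH1, FTL and TFRC. Some results of genes in these lists are not reported here. Also tried were upper-quartile and RLE scaling, no or a stricter filter, 8 libraries, limma-voom, DESeq2 1.42.0, a minimum change of 1.5-fold, thinning, the trend removal and leaving out each library; adding pseudogene reads and removing the trend by principal transcripts were chosen after seeing the data. Sequences are GENCODE 29 transcripts. Figures used Python 3.11.15, numpy 2.4.6, pandas 2.3.3 and matplotlib 3.10.9. At low counts precision is set by depth, and no molecular identifiers are given.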

Additional observations from a re-analysis of the deposited data

Results flagged for a closer look

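SLC40A1 had 4.73 CPM in PFBA d, far from the 3.10 to 3.24 CPM of the other PFBA libraries: the gap was 0.915 of the range of the 4 values, above the 95% critical value of Dixon's test. Of 27 groups of 4 values checked, this was the 1 past that value, and chance gives about 1 in 20.

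At 3 genes the effect of PFHxA differed from that of PFBA in the edgeR test of one acid against the other. The difference was -0.16 on the log2 scale for TFRC (adjusted p = 0.0345), -0.15 for IREB2 (adjusted p = 0.0370) and -0.17 for NCOA4 (adjusted p = 0.0142), with all 4 PFHxA libraries below all 4 PFBA libraries at each gene. Such a lack of overlap was found for 20% of all tested genes. The slope of level over GC content also separated these groups, at 0.0706 to 0.104 per 10 points with PFHxA and -0.0650 to 0.00417 with PFBA.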

How the results depend on the processing

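None of the 9 genes changed its call under RLE or upper-quartile scaling, a stricter filter, a fit to 8 libraries alone, limma-voom, thinning to the smallest total or pseudogene reads added to FTH1 and FTL. STEAP3 has no value under the stricter filter, and DESeq2 gave SLC40A1 and STEAP3 no adjusted p in both comparisons of PFHxA. Without a filter IREB2 was not called against PFBA (adjusted p = 0.0902). Fitting 8 libraries alone lost the calls of ISCA1, ISCA2, ISCU, LPCAT3 and VDAC3 against control and of AP2A1 and ULK1 against PFBA, upper-quartile scaling those of ISCA1 and ISCA2, RLE that of ISCA2, and thinning those of HMOX1 and LPCAT3 against control and ATP6V0A1 against PFBA. A minimum change of 1.5-fold left 0 of the 9 genes and 0 of the other iron genes called in all 3 comparisons. For PFHxA against PFBA, DESeq2 called 29 of the other genes, and its share over all genes there is not given here. With the GC and length trend removed, 0 of the 9 were called in any comparison. Of the other genes, 3 were called for PFHxA against control (23 before), where 2.59% of all genes were. For PFHxA against PFBA 2 were called (17 before), where 0.749% of all genes were. That removal turned the sign of the log2 fold change for PFHxA against control to 0.077 for SLC40A1, 0.053 for IREB2 and 0.028 for ISCA1, and for PFHxA against PFBA to -0.034 for FTL, 0.023 for IREB2 and 0.016 for FBXL5. By principal transcripts 1 of the 9 (NCOA4) and 4 other genes were called for PFHxA against control and 0 and 2 for PFHxA against PFBA; the turned values were 0.079 for SLC40A1, 0.0503 for IREB2 and 0.031 for ISCA1 against control and -0.035 for FTL, 0.0032 for SLC40A1, 0.029 for IREB2 and 0.025 for FBXL5 against PFBA. SLC40A1 was at 0.0021 by limma-voom for PFHxA against control and at -0.054 after thinning for PFBA against control. The cause of these turns was not tested.

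Leaving out 1 library gave 0 to 3 of the 9 genes for PFHxA against PFBA, with 0 without PFHxA c and NCOA4 alone without PFHxA a or b or PFBA a or c, 1 in every fit for PFHxA against control and 0 in every fit for PFBA against control. Other iron genes called ran from 14 to 26 for PFHxA against control, from 9 to 21 for PFHxA against PFBA and from 0 to 1 for PFBA against control, with the 1 without control b. Of them, 11 of 23 and 8 of 17 were called in all 12 fits. The share of all genes called in each of these fits is not given here, so the counts have no background beside them. For PFBA against control the log2 fold change ran from -0.028 to 0.0498 for FTH1, -0.081 to 0.25 for SLC40A1, -0.035 to 0.019 for ACO1, -0.036 to 0.011 for NCOA4 and -0.23 to 0.056 for STEAP3. It ran from -0.10 to 0.15 for SLC40A1 in PFHxA against control. For PFHxA against PFBA it ran from -0.0085 to 0.11 for FTL, -0.17 to 0.067 for SLC40A1 and -0.057 to 0.0602 for SLC11A2. Counts under 100 per library limit SLC40A1 and STEAP3.

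No paired analysis was possible because the columns carry letters that are not tied to the replicate numbers in the labels.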
